A study of Mus musculus with 12 samples.

Results

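The change in gene expression between embryonic day 11 (E11) and embryonic day 13 (E13) was described over the whole transcriptome of the cerebral cortex in C57BL/6 mice. The 6 libraries titled E11 A, B and C and E13 A, B and C were taken from a series of 12, which also holds E17 and postnatal day 1. The labels name no treatment and no mutation in either group. Each library was poly(A)+ RNA from the cortex of 1 embryo, the 3 embryos of an age came from different litters, and fragments were read from 1 end by RNA sequencing. The series title concerns zinc, and the comparison here takes in the other genes. The 6 libraries held 28720133 to 35276008 counts, and levels are given as CPM, the count of a gene divided by the scaled size of its library and put on a common scale.

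At E11 the wall of the cortex is mostly neuroepithelium, whose cells divide to enlarge their own number. By E13 many of these cells have become radial glia, which divide to give a further progenitor and either a neuron or an intermediate progenitor, and the first layers of neurons have formed. The shift is known to involve loss of early stem-cell regulators such as Lin28 and Hmga2, a longer cell cycle, weaker signals from the patterning centres at the cortical edges, and the first use of genes for axons, membranes and synapses.

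A marker of the labelled tissue was present in every library, and so were markers of some neighbouring tissues. Emx1 (ENSMUSG00000033726), a transcription factor specific to the dorsal telencephalon, stood at 98.9, 98.8 and 88.7 CPM at E11 and 125, 114 and 118 CPM at E13 in libraries A, B and C, while 22 hindbrain and spinal cord markers summed to at most 1.18 CPM in any of the 6 libraries. Other tissues were present in unequal amounts: 13 red cell genes summed to 16519.7, 5757 and 9712 CPM at E11 and 1275, 784 and 1764 CPM at E13, and 16 meningeal and mesenchymal markers to 1571, 1862 and 1896 CPM against 1126, 970 and 1344 CPM. A list of 18 muscle and cartilage markers summed to 362, 369.9 and 389.6 CPM at E11 and 318, 355 and 312 CPM at E13. A list of 16 markers of the diencephalon, hypothalamus and regions near the hem summed to 68.6, 80.5 and 71.5 CPM against 72.1, 65.7 and 63.4 CPM. The choroid plexus list was lowest in E13 C, at 104 CPM, against 318 to 507 CPM in the other 5 libraries. In a principal component analysis of the 6 libraries, the first component held 66.4% of the variance and separated the ages, with E13 B farthest out (62.4 against 34.3 and 41.8 for E13 A and C). The second component held 15.1% and set E11 C (-36.8) and E13 C (-19) toward one side. In bulk tissue a change in the number of cells of a type and a change in RNA per cell cannot be told apart, and this holds for every result that follows.

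Of 17847 genes with enough counts to test, 7155 changed between E11 and E13, which is 40.1% (edgeR quasi-likelihood test, Benjamini-Hochberg adjusted p under 0.05). Rises were 4038 (22.6% of tested genes) and falls 3117 (17.5%). Most changes were small: 57.9% of the changed genes moved by less than 1.5-fold, and the median size was 0.48 on the log2 scale. At least 2-fold changes were seen in 1742 genes (9.76%), of which 1118 rose (6.26%) and 624 fell (3.5%). At 4-fold or more, 367 genes rose and 181 fell. The median log2 fold change of all tested genes was 0.00. All E13 libraries lay above all E11 libraries in 27.6% of tested genes and below them in 24.2%. In mean levels, 8.84% of all counts belonged to a different gene at E13 than at E11, and 8.36% without the red cell genes.

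The direction of small changes leaned on the scaling. Rises were 56.4% of changed genes with the scaling used here, 50.2% when only library size was used and 47.3% with upper-quartile factors; the median log2 fold change of all genes was then -0.03 and -0.04. The count of changed genes was 5562 without E13 B. In each of 6 fits that left out 1 library, 4869 genes were called in the same direction, among them 1471 of the 1742 with a 2-fold change, and no changed gene was called in the opposite direction.

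**Figure D1:**
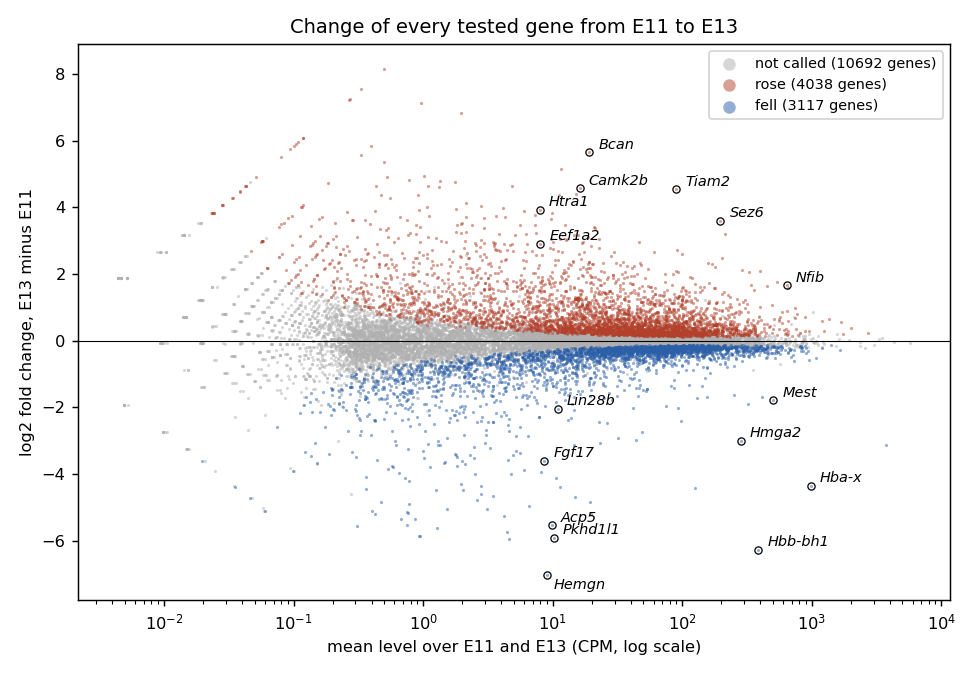
Each point is 1 of 17847 tested genes, with its mean level over both ages (CPM, log scale) against its log2 fold change from E11 to E13; red genes rose (4038), blue fell (3117), grey were not called. Red cell genes such as Hbb-bh1 and Hba-x are among the strongest falls, and neuronal genes such as Tiam2 and Sez6 among the strongest rises.

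The largest rises among genes with at least 10 CPM were led by genes known from nerve cells and their matrix. Bcan, which encodes brevican, a proteoglycan of the brain's extracellular matrix, was found at 0.827, 1.24 and 0.127 CPM at E11 and 33.8, 53.3 and 25.3 CPM at E13. It was the largest rise by this rule (log2 fold change 5.65 ± 0.52 SE, adjusted p = 3.03e-05; 6.25 without E11 B), and every E13 library lay far above every E11 library. Camk2b, the beta subunit of a calcium-dependent kinase of neurons, went from 1.42, 1.36 and 1.11 CPM to 26, 40.2 and 26.7 CPM (log2 fold change 4.57 ± 0.20 SE, adjusted p = 4.5e-08). Tiam2, an activator of the small GTPase Rac that shapes the cytoskeleton of migrating neurons, measured 10.3, 8.08 and 3.85 CPM at E11 and 137, 251 and 131 CPM at E13 (log2 fold change 4.54 ± 0.37 SE, adjusted p = 1.28e-05). In all 3 genes the highest library was E13 B, and the ages did not overlap. The sum of 12 pan-neuronal markers was also highest in E13 B, at 1638, 1464 and 1696 CPM in the E11 libraries and 2828, 3379.5 and 3030.1 CPM in the E13 libraries, and its part in these rises was not tested.

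The other large rises were of mixed function. Htra1, a secreted serine protease, rose from 0.827, 1.41 and 0.669 CPM to 14.9, 18.2 and 11.4 CPM (log2 fold change 3.92). Sez6, a membrane protein of dendrites, was already present at E11, with 40.1, 29.3 and 20.6 CPM at E11 and 307, 492 and 292 CPM at E13 (log2 fold change 3.60). The remaining members were the NMDA receptor subunit gene Grin2b (4.41), the neuronal nitric oxide synthase Nos1 (4.37), the complement-domain gene Csmd1 (3.88), the ubiquitin ligase March4 (3.82), the microtubule-binding Jakmip1 (3.78) and the nuclear receptor Nr4a3 (3.48). Abcc8, a regulatory subunit of ATP-sensitive potassium channels, had a log2 fold change of 3.65, and of 2.92 without E13 B, where it stood at 32.1 CPM against 9.26 and 12.2 CPM in E13 A and C.

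**Figure D2:**
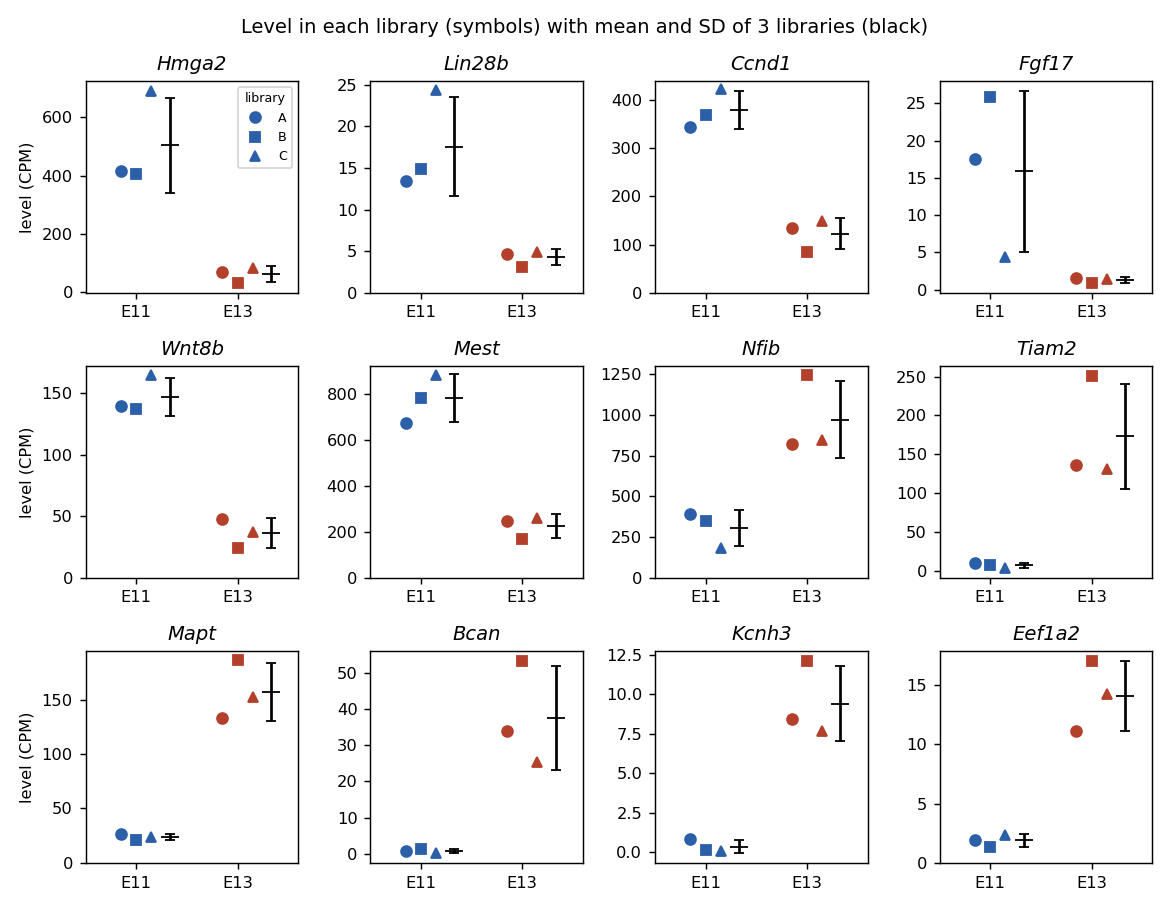
Level of 12 genes in each library (CPM, linear axis), with circles for library A, squares for B and triangles for C, and the mean and SD of the 3 libraries of an age in black. In each of the 12 genes the 3 E13 libraries lie on one side of the 3 E11 libraries, and E13 B is the lowest E13 library for Hmga2, Ccnd1 and Mest and the highest for Tiam2, Mapt and Bcan.

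The largest falls were red cell genes almost throughout. Hbb-bh1, an embryonic beta-like globin, was at 925, 264 and 1098 CPM at E11 and 12.5, 3.57 and 13.3 CPM at E13. E11 B was the lowest of the E11 libraries, as it was for the red cell list, and the ages did not overlap. The 12 genes with the largest falls also held Hemgn, a nuclear factor of red cell precursors (-7.03; -6.10 without E11 C, and adjusted p = 0.0622 in limma-voom), the blood group genes Rhd (-4.95), Ermap (-4.85) and Kel (-4.69; -4.06 without E11 A), the anion exchanger Slc4a1 (-4.41), Trim10 (-4.39), the membrane skeleton gene Epb42 (-4.12) and the embryonic alpha-like globin Hba-x (-4.35). Pkhd1l1 (-5.91; -5.27 without E11 A) and Acp5, a tartrate-resistant acid phosphatase (-5.54), were also among them. Of the 13 red cell genes 12 fell, where 17.5% of all tested genes did, and the median over the 13 was -3.14 against 0.00 for all tested genes. Hbb-bs, an adult beta globin, did not pass (134, 62.1 and 25.6 CPM at E11 and 85.1, 109 and 142 CPM at E13, adjusted p = 0.425). The paralogs Hbb-bs and Hbb-bt, and Hba-a1 and Hba-a2, are near-identical in sequence, and how reads were split between them is not given in the sources used here.

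The start regions of these genes are shown to let their content of CG dinucleotides be seen, for the 3 largest rises and the 3 largest falls with an entry in the promoter table. Each sequence holds the 250 bases before the start of the gene in RefSeq (GRCm38.p6), written 5′ to 3′ on the strand of the gene, with CG dinucleotides in capitals. Bcan lies at chr3:88000357-88000606, minus strand, Camk2b at chr11:6065749-6065998, minus strand, and Tiam2 at chr17:3396957-3397206, plus strand. Hemgn lies at chr4:46404184-46404433, minus strand, Acp5 at chr9:22135747-22135996, minus strand, and Rhd at chr4:134864286-134864535, plus strand.
Bcan: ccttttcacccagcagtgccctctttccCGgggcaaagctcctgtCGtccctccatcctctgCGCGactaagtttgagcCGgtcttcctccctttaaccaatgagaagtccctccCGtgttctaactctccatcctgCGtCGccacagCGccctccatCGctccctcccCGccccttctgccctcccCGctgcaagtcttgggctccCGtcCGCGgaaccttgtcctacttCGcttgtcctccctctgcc
Camk2b: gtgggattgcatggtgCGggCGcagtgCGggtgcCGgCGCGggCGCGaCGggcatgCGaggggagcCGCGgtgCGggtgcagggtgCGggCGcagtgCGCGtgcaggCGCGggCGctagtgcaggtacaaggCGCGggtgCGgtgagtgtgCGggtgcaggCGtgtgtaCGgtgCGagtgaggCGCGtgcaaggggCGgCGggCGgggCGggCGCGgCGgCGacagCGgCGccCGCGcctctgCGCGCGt
Tiam2: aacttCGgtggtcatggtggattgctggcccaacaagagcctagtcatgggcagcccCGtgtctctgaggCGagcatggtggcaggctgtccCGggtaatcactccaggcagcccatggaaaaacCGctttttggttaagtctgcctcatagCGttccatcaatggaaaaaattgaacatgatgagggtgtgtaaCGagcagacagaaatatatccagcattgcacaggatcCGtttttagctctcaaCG
Hemgn: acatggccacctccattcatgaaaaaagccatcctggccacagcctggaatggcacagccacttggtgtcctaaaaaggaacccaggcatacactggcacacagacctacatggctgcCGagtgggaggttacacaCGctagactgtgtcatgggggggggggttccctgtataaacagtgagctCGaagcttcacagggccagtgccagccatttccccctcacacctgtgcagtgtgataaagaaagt
Acp5: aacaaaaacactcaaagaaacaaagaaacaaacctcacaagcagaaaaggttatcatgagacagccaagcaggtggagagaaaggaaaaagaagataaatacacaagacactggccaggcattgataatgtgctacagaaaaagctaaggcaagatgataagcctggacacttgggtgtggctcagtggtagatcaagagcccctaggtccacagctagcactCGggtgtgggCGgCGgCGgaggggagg
Rhd: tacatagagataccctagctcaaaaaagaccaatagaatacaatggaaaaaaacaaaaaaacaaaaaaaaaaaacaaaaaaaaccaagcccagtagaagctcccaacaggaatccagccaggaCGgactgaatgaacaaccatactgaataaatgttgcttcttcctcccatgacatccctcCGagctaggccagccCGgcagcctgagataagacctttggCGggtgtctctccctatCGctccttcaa
The 3 rising genes held 16, 44 and 9 CG dinucleotides in this window, and the 3 falling genes 3, 4 and 5. Over 12259 tested genes with an entry, the median was 15. It was 12 for the 712 that rose at least 2-fold and 9 for the 446 that fell at least 2-fold. Windows with fewer than 5 CG dinucleotides made up 13.4% of all, 20.9% of the 2-fold rises and 27.6% of the 2-fold falls. Over all called genes, whatever their size, the median was 16 both for rises and for falls.

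Ranked by the change in mean level rather than by fold, the largest gains were in transcription factors and the cytoskeleton. Nfib (ENSMUSG00000008575), a nuclear factor I transcription factor of radial glia and neurons, stood at 394, 347 and 183 CPM at E11 and 822, 1246 and 846 CPM at E13 (log2 fold change 1.66 ± 0.26 SE, adjusted p = 0.000708), with the E11 level lowest in E11 C. Nfix, of the same family, had 191, 185 and 79.6 CPM at E11 and 577, 844 and 524 CPM at E13 (log2 fold change 2.09). The cytoskeletal genes Dpysl3 (1.57), Kif21b (1.75), Map1b (0.64) and Tuba1a (0.55) and the bHLH factor Tcf4 (0.97) were also among the 8 largest gains, with Ccnd2. Tuba1a, the main alpha tubulin of young neurons, was at 1289, 1341 and 1421 CPM at E11 and 1937, 1965 and 2046 CPM at E13, a small fold on a high level.

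The largest losses in level outside the globins were Mest, Hmga2, Lrrn1 and Ncl. Mest, an imprinted gene of the mesoderm and early brain, fell from 674, 783 and 883 CPM to 249, 167 and 262 CPM (log2 fold change -1.79 ± 0.16 SE, adjusted p = 8.96e-06). Lrrn1, a leucine-rich repeat membrane protein, had 648, 613 and 641 CPM at E11 and 244, 134 and 214 CPM at E13 (log2 fold change -1.68). Ncl, the nucleolar protein nucleolin, had 1287, 1262 and 1283 CPM at E11 and 986, 751 and 945 CPM at E13 (log2 fold change -0.52). In all 3 genes E13 B was the lowest library, and no E13 library overlapped with E11.

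Most genes of developmental timing fell. Of 14 genes of the Lin28, let-7 and Hmga pathway 10 fell and 0 rose, with a median of -0.61 (1 rose without E11 A; over all tested genes 17.5% fell, 22.6% rose, and the median was 0.00). Hmga2, which binds AT-rich DNA in early progenitors, was measured at 416, 404 and 691 CPM at E11 and 71, 32.3 and 84.6 CPM at E13 (log2 fold change -3.01 ± 0.35 SE, adjusted p = 0.000133). Lin28b, an RNA-binding protein that blocks maturation of let-7 microRNAs, had 13.4, 14.9 and 24.4 CPM at E11 and 4.66, 3.14 and 4.91 CPM at E13 (log2 fold change -2.05 ± 0.24 SE, adjusted p = 3.56e-05). Its paralog Lin28a gave 29, 53 and 98 counts in the E11 libraries and 3, 0 and 0 counts in the E13 libraries. Trim71, an RNA-binding ubiquitin ligase and let-7 target, was at 2.33, 2.21 and 4.14 CPM at E11 and 0.688, 0.533 and 0.802 CPM at E13 (log2 fold change -2.10). In each of these genes E11 C was the highest library. Igf2bp1, an mRNA-binding protein of embryonic tissue, had a log2 fold change of -0.71. Among 9 tested genes of the early embryo and germ line, Sall4 fell (-0.96) while the imprinting factor Zfp57 rose (1.04).

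**Figure D3:**
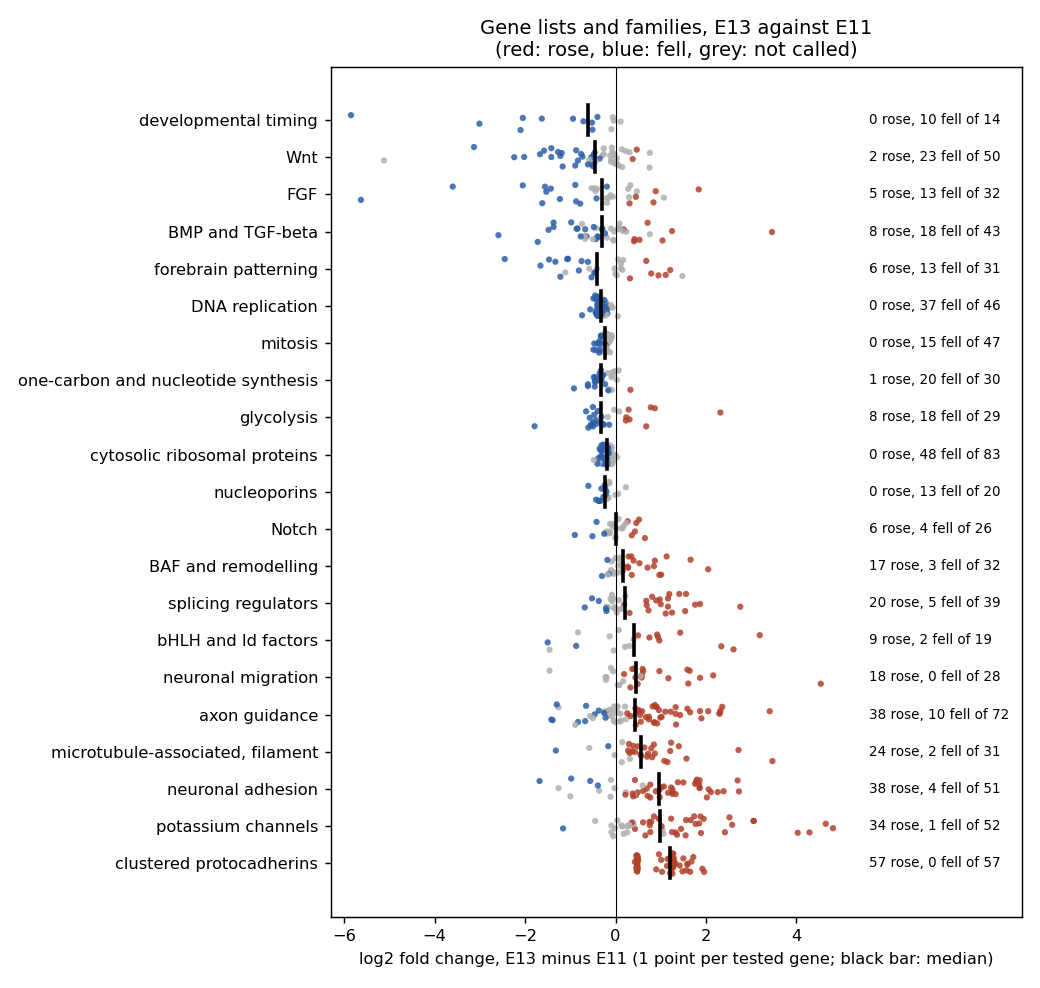
Log2 fold change from E11 to E13 of every tested member of 21 gene lists and families (1 point per gene; red rose, blue fell, grey not called; black bar, median), with the counts at the right. Timing, replication and ribosomal protein genes have 0 rises, and clustered protocadherins 57 rises of 57.

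Among Wnt, FGF, BMP and hedgehog genes falls outnumbered rises, with a large share of each list not called. Of 50 Wnt ligands, receptors, inhibitors and targets 23 fell and 2 rose (17.5% and 22.6% over all tested genes), with a median of -0.45. Wnt8b, a ligand made by the cortical hem at the medial edge, was at 139.7, 137 and 165 CPM at E11 and 48.1, 23.9 and 37.2 CPM at E13 (log2 fold change -2.02 ± 0.37 SE, adjusted p = 0.0021); the adjusted p was 0.269 in DESeq2. Fzd5, a Wnt receptor of the anterior neural tube, was at 3.07, 1.56 and 4.05 CPM at E11 and 0.556, 0.309 and 0.988 CPM at E13 (log2 fold change -2.24). For both genes the ages did not overlap. Wnt7a, a ligand of the ventricular zone, was one of the 2 that rose, by 0.38; 1 rose without E13 A.

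Of 32 FGF genes 13 fell and 5 rose (17.5% and 22.6% over all tested genes), with a median of -0.30. Fgf17, a ligand of the anterior patterning centre, was at 17.5, 25.8 and 4.33 CPM at E11 and 1.59, 0.87 and 1.45 CPM at E13 (log2 fold change -3.60 ± 0.54 SE, adjusted p = 0.000394), with E11 C well below E11 A and B. Fgf8, the main organiser signal of that centre, was at 1.92, 3.83 and 1.75 CPM at E11 and 0.0794, 0 and 0.0617 CPM at E13 (log2 fold change -5.63; -6.24 without E13 A). Genes that FGF signalling is known to induce were singled out after their values were seen. Etv4 (-1.62), Spry1 (-1.56) and Dusp6 (-0.89) fell, whereas Spry2 (-0.47, adjusted p = 0.0543), Spry4 (-0.19, adjusted p = 0.501) and Spred1 (-0.16, adjusted p = 0.0649) did not pass. The receptor genes Fgfr1 (-0.11), Fgfr2 (-0.06) and Fgfr3 (0.28) did not pass the threshold. The rises were mostly in intracellular FGF homologues that bind sodium channels: Fgf11 (1.84), Fgf14 (0.89) and Fgf12 (0.84; adjusted p = 0.0537 in limma-voom).

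Of 43 BMP and TGF-beta genes 18 fell and 8 rose (17.5% and 22.6% over all tested genes), with a median of -0.29. Bmp4, a ligand of the dorsal midline, was at 6.79, 8.9 and 13.7 CPM at E11 and 3.2, 2.22 and 3.49 CPM at E13 (log2 fold change -1.72), and Msx2, a target of BMP signals, had a log2 fold change of -2.59, or -1.86 without E11 C. Bmp3 went against them, from 0.591, 1.12 and 1.05 CPM to 8.12, 13.1 and 9.32 CPM (log2 fold change 3.46 ± 0.22 SE, adjusted p = 1.69e-07). The Id genes, which encode inhibitors of bHLH factors and are induced by BMP, split: Id3 (-1.50) and Id1 (-0.87) fell, Id2 rose (0.75), and Id4 did not pass (0.21, adjusted p = 0.181). Of 15 hedgehog pathway genes 7 fell and 1 rose, but the falls were 3 without E13 B and 4 without E11 C, and the rise was lost without any 1 of E11 B, E11 C, E13 B and E13 C. Gli1, a target of the pathway, was at 2.98, 5.37 and 8.38 CPM at E11 and 2.62, 1.82 and 2.62 CPM at E13 (log2 fold change -1.24). The meningeal markers that moved with these lists were given above, and their part in the result was not tested.

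Notch, retinoid and insulin-like growth factor genes moved in both directions. Of 26 Notch genes 6 rose and 4 fell, near the 22.6% and 17.5% of all tested genes, with a median near 0. The ligand Jag1 fell from 43.4, 42.5 and 44.5 CPM to 26.7, 19.6 and 23.5 CPM (log2 fold change -0.90 ± 0.12 SE, adjusted p = 5.25e-05), and Numbl, an inhibitor of Notch receptors, rose by 0.65. The ligand Dll1 (161, 140.3 and 149 CPM at E11 and 152, 149 and 149 CPM at E13) and the target Hes1 (51.1, 53.6 and 43.6 CPM at E11 and 50.1, 45.1 and 47.2 CPM at E13) did not pass, and their libraries overlapped. Of 17 retinoid genes 5 rose and 3 fell, with 2 rises without E11 A and also 2 without E11 C, and 3 without E13 A or E13 C; Crabp2, a retinoic acid carrier also on the meningeal list, had a log2 fold change of -1.95. Of 13 insulin-like growth factor genes 3 rose and 6 fell: the ligand Igf1 fell by 1.26 on the log2 scale and the adaptor Irs4 by 1.99, while Igfbpl1, expressed in newborn neurons, rose by 0.98.

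Among forebrain patterning factors falls outnumbered rises. Of 31 tested, 13 fell and 6 rose (17.5% and 22.6% over all tested genes), with a median of -0.41. The rises included Lmo1 (1.21) and Lmo3 (0.95), which encode LIM-domain cofactors. Otx2, a factor of the early forebrain and choroid plexus, was at 22.8, 39.4 and 26.9 CPM at E11 and 12.5, 9.49 and 6.08 CPM at E13 (log2 fold change -1.66). Zic4, a zinc finger factor of the dorsal midline, had 63.5, 97.6 and 57.7 CPM at E11 and 28.5, 19.6 and 31.2 CPM at E13 (log2 fold change -1.47). All 5 Zic genes fell, but only 3 did when any 1 library other than E11 A was left out. Pax6, a regulator of radial glia, stood at 158, 158 and 162 CPM at E11 and 166, 173 and 181 CPM at E13 (adjusted p = 0.457), and Lhx2, a selector of cortical identity, at 659, 628 and 548 CPM at E11 and 693, 583 and 636 CPM at E13 (adjusted p = 0.6). Of 6 tested markers of the diencephalon and regions near the hem 3 fell (6 without E11 A, 5 without E11 C), and their list summed to 68.6, 80.5 and 71.5 CPM at E11 and 72.1, 65.7 and 63.4 CPM at E13. Of 11 muscle and cartilage markers 5 fell, among them Pax3 (-4.49), which the early dorsal neural tube also expresses.

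Among proneural and neuronal bHLH factors rises outnumbered falls. Of 19 bHLH and Id genes 9 rose and 2 fell (22.6% and 17.5% over all tested genes), with a median of 0.40. Neurog2, which starts neurogenesis in the cortex, was at 132, 149 and 115 CPM at E11 and 240, 265 and 243 CPM at E13 (log2 fold change 0.92; adjusted p = 0.0658 without E11 C and E13 C). Bhlhe22, a factor of postmitotic cortical neurons, was at 18.6, 22.8 and 5.19 CPM at E11 and 71.2, 95.6 and 69.4 CPM at E13 (log2 fold change 2.34), lowest in E11 C. Of 10 intermediate progenitor markers 9 rose and 0 fell, and of 13 radial glia markers 3 rose and 3 fell. The radial glia genes that fell were Sox2 (-0.24), a stem-cell factor, the filament gene Nes (-0.16) and Prom1 (-0.25); 0 fell without E11 C, 0 without E13 A, and 1 without E11 A or without E13 B. The largest rise among them was Ddah1 (0.97), an enzyme that breaks down methylated arginine, which was called in every fit with 1 library left out.

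Most DNA replication genes fell by small amounts, while most genes of mitosis were not called. Of 46 DNA replication genes 37 fell and 0 rose, with a median of -0.33, and 23 fell without E13 B. Over all tested genes 17.5% fell and 22.6% rose. Orc1, which marks replication origins, was at 21.6, 21.9 and 22.6 CPM at E11 and 13.4, 11.3 and 15.1 CPM at E13 (log2 fold change -0.74 ± 0.15 SE, adjusted p = 0.00166). Cdc6, which loads the replicative helicase, was at 55.8, 53.6 and 56.6 CPM at E11 and 37.1, 35 and 41 CPM at E13 (log2 fold change -0.56). The E13 libraries of both genes lay below all E11 libraries. Of 47 mitosis genes 15 fell and 0 rose, with a median of -0.23. The falls in mitosis genes were 9 without E11 B, 9 without E11 C and 4 without E13 B. Mki67 (913, 765 and 925 CPM at E11 and 764, 801 and 862 CPM at E13) and Top2a (1023, 961 and 985 CPM at E11 and 907, 812 and 895 CPM at E13), markers of dividing cells, did not pass. Of 28 centrosome and spindle genes linked to microcephaly 6 fell and 3 rose, a share of falls near that of all tested genes. Plk4 (-0.40) and Cep152 (-0.37), which act in centriole duplication, were among the falls, which were 3 without E13 B.

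The regulators of G1, the phase in which a progenitor commits to divide again, changed in both directions. Over all tested genes 22.6% rose and 17.5% fell. Ccnd1, the D-type cyclin of early progenitors, was at 345, 370 and 423 CPM at E11 and 135, 85.4 and 148 CPM at E13 (log2 fold change -1.63 ± 0.17 SE, adjusted p = 3.05e-05). Ccnd3, another D-type cyclin, was at 118, 109 and 138 CPM at E11 and 65.4, 57.8 and 68.9 CPM at E13 (log2 fold change -0.93), and Ccne1, a cyclin of entry into DNA synthesis, at 47.6, 49.2 and 49 CPM at E11 and 31.2, 24.7 and 30 CPM at E13 (log2 fold change -0.76). No E13 library reached the E11 range in these 3 genes. Among the 10 rises of the 31 tested G1 genes were Gadd45g (1.14) and Btg1 (0.75), which restrain growth, and Cdkn2c (0.70), an inhibitor of cyclin D kinases; 11 fell. Ccnd2, the other D-type cyclin of progenitors, was at 1957, 1823 and 1419.8 CPM at E11 and 2409.6, 2035 and 2299.8 CPM at E13. Its call (log2 fold change 0.38, adjusted p = 0.0483) was lost in 5 of 6 fits with 1 library left out.

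Start regions of replication genes are shown where they held a motif of the E2F type. The motifs searched were TTTGGCGC and TTTCGCGC on both strands, within 250 bases before the start in RefSeq (GRCm38.p6); E2F factors are the transcription factors that Rb proteins hold in check until S phase. The motifs were found in 13.2% of 38 replication genes and in 1.22% of all 12259 tested genes with an entry. By call, the share was 1.47% of falling genes, 0.808% of rising genes and 1.3% of genes not called. It was 0.673% of genes that fell at least 2-fold. The windows below carry the first match of each gene with up to 30 bases on each side, 5′ to 3′ on the strand of the gene, and capitals mark the matched bases, with overlapping matches joined. They lie at chr8:75109326-75109393, plus strand for Mcm5, chr1:128359778-128359845, minus strand for Mcm6, chr4:108579397-108579453, plus strand for Orc1, chrX:93632256-93632323, minus strand for Pola1 and chr5:151651209-151651248, minus strand for Rfc3.
Mcm5: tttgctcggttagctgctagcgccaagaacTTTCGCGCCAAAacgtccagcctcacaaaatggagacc
Mcm6: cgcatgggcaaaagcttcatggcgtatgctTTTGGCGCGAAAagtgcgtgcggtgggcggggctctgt
Orc1: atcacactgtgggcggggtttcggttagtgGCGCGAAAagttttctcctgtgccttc
Pola1: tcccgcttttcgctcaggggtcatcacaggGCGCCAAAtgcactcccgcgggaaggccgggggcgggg
Rfc3: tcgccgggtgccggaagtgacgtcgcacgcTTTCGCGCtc
Of these 5 genes, Orc1 (log2 fold change -0.74), the helicase subunits Mcm5 (-0.40) and Mcm6 (-0.40) and the polymerase subunit Pola1 (-0.36) fell, and Rfc3 did not pass (-0.25, adjusted p = 0.0796). The motif CCAAT was found in 55.3% of the replication genes and 36% of all. A match describes these letters only and does not show binding.

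Among genes that supply growth falls outnumbered rises. Of 30 genes of one-carbon, serine and nucleotide synthesis 20 fell and 1 rose, with a median of -0.31. Over all tested genes 17.5% fell and 22.6% rose. Mthfd1l, a mitochondrial folate enzyme, was at 30.4, 29.4 and 35.9 CPM at E11 and 18.3, 15 and 17.4 CPM at E13 (log2 fold change -0.92 ± 0.13 SE, adjusted p = 0.000132), and Ppat, the first enzyme of purine synthesis, at 70, 74.4 and 73.6 CPM at E11 and 51.1, 41 and 51.2 CPM at E13 (log2 fold change -0.61). All E13 libraries of both genes were below the E11 range. Of 83 cytosolic ribosomal protein genes 48 fell and 0 rose, with a median of -0.19; 26 fell without E11 B and 26 without E13 B. Of 20 nucleoporins 13 fell and 0 rose (median -0.23), of 8 cytosolic chaperonin subunits 6 fell and 0 rose (median -0.19), and of 46 proteasome subunits 20 fell and 1 rose (median -0.17; 12 falls without E11 B, and 0 rises without any 1 of E11 A, E11 C and E13 A). Of 56 translation initiation factors 26 fell and 3 rose, and 16 fell without E13 B. With upper-quartile factors, under which the median of all genes is -0.04, the falls of proteasome subunits were 28.

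Genes of glycolysis were mostly lower. Of 29 glycolysis and pyruvate genes 18 fell and 8 rose (17.5% and 22.6% over all tested genes), with a median of -0.31. Slc16a3, a lactate exporter of glycolytic cells, was at 42, 35.2 and 56.5 CPM at E11 and 11.9, 11.5 and 15.2 CPM at E13 (log2 fold change -1.79 ± 0.22 SE, adjusted p = 5.86e-05), and Slc16a1, a lactate and pyruvate carrier, had a log2 fold change of -0.65. Of 49 nuclear genes of oxidative phosphorylation 7 fell and 2 rose, with a median of -0.05; the falls were 3 without any 1 of E11 B, E11 C and E13 B, and 13 with upper-quartile factors, and 1 rose without E11 C. Of 27 cholesterol genes 7 fell and 3 rose, with a median of -0.06. The shares of hypoxia genes that rose and fell were near those of all tested genes. Among 26 hypoxia genes 4 rose (2 without E11 C or without E13 B) and 5 fell: Ndrg1, a stress-response gene that is also found in maturing cells, went from 3.07, 2.62 and 2.55 CPM to 19, 27.5 and 20.8 CPM (log2 fold change 3.03 ± 0.14 SE, adjusted p = 3.22e-08), whereas Slc2a1 (-0.50), Ero1l (-0.46) and Bnip3 (-0.46) fell. Slc2a1 is also a marker of endothelium. Of 17 endothelial markers 6 fell (3 without E11 A, 3 without E13 B) and 1 rose (2 without E11 B, 3 without E13 C), their sum was 616, 628 and 544 CPM at E11 and 535, 438 and 487 CPM at E13, and their part in the result was not tested.

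The neuronal subunits of chromatin remodellers named here rose. Actl6b, the actin-like BAF subunit of neurons, was at 7.5, 5.69 and 8.19 CPM at E11 and 25.6, 33.4 and 29.5 CPM at E13 (log2 fold change 2.05 ± 0.12 SE, adjusted p = 1.08e-07), while its progenitor counterpart Actl6a was at 159, 163 and 165 CPM at E11 and 149.9, 131 and 151 CPM at E13 and did not pass (adjusted p = 0.17). Ss18l1, the neuronal counterpart of Ss18, was at 27, 25.8 and 25.4 CPM at E11 and 46.2, 57.5 and 49.4 CPM at E13 (log2 fold change 0.97), and Ss18 did not pass (adjusted p = 0.335). The ATPase gene Smarca2 rose by 0.87 and Dpf1 by 0.40. Smarca4, the paralog of Smarca2, also rose (0.28, adjusted p = 0.012, and 0.0545 without E11 B). At E13 the mean of Smarca4 was 720 CPM and that of Smarca2 83.7 CPM. In all, 17 of 32 remodelling genes rose and 3 fell (22.6% and 17.5% over all tested genes), with a median of 0.16. The 3 falls became 1 without E11 B. Of 32 polycomb and trithorax genes 11 rose and 4 fell, with 6 rises without E13 B and 7 without E11 C. Eed, a core subunit of the H3K27 methyltransferase complex, fell by 0.40 on the log2 scale, and Jarid2, which recruits it, by 0.48. Of 18 DNA methylation genes 5 rose and 6 fell, or 3 without any 1 of E11 A, E13 A and E13 B. Dnmt3b, the de novo methyltransferase of early embryos, was at 17.4, 17.4 and 19.9 CPM at E11 and 10.6, 10.2 and 10.6 CPM at E13 (log2 fold change -0.80 ± 0.11 SE, adjusted p = 8.25e-05), and Uhrf1, which directs maintenance methylation at replication forks, fell by 0.49.

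Paralog pairs that are known to be used at different stages behaved in several ways. In 24 pairs, a rise of the second member with a fall of the first was called for Aldoa and Aldoc, Eno1 and Eno2, Ccnd1 and Ccnd2, Lmo2 and Lmo4, and Phf10 and Dpf1. Lmo2, a cofactor of LIM factors, was at 48.9, 45.8 and 45.3 CPM at E11 and 24.1, 15.2 and 20.9 CPM at E13 (log2 fold change -1.22). Its paralog Lmo4 was at 24.6, 29.9 and 29.7 CPM at E11 and 51.1, 47.5 and 46.6 CPM at E13 (log2 fold change 0.79). At E13, Lmo2 and the sums of red cell and endothelial markers were lowest in E13 B. At E11, Lmo2 and the endothelial sum were lowest in E11 C and the red cell sum in E11 B. The part of these cells in the fall of Lmo2 was not tested. Of the calls in opposite directions, that of Ccnd2 was unstable as given above. Aldoc (65.3, 84.5 and 8.44 CPM at E11 and 263, 286 and 242 CPM at E13) had an adjusted p of 0.101 with only the 6 libraries of the comparison. Phf10 had an adjusted p of 0.0683 without E11 B. Both members fell for Lin28a and Lin28b, Hmga2 and Hmga1, Igf2bp2 and Igf2bp1, Dnmt3b and Dnmt3a, and Slc2a1 and Slc2a3. Both rose for Neurog1 and Neurog2, and for Smarca4 and Smarca2. The calls of Hmga1, Igf2bp2, Dnmt3a, Neurog1 and Smarca4 were each lost in some fit with 1 library left out. Eef1a2, the elongation factor of mature neurons, went from 1.95, 1.36 and 2.39 CPM to 11.1, 17 and 14.2 CPM (log2 fold change 2.90 ± 0.20 SE, adjusted p = 9.38e-07), beside 5838, 6016 and 5869 CPM at E11 and 5673, 5045 and 6009 CPM at E13 for Eef1a1 (adjusted p = 0.289). Elavl3, a neuronal RNA-binding protein, rose by 1.00, and the ubiquitous Elavl1 did not pass (adjusted p = 0.289). The chloride transporters Slc12a2 and Slc12a5, whose balance sets the response to GABA in older neurons, did not pass (adjusted p = 0.108 and 0.126). Without E11 B, Slc12a5 was called lower (-0.61, adjusted p = 0.0202), and with upper-quartile factors Slc12a2 was (-0.18, adjusted p = 0.0429).

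**Figure D4:**
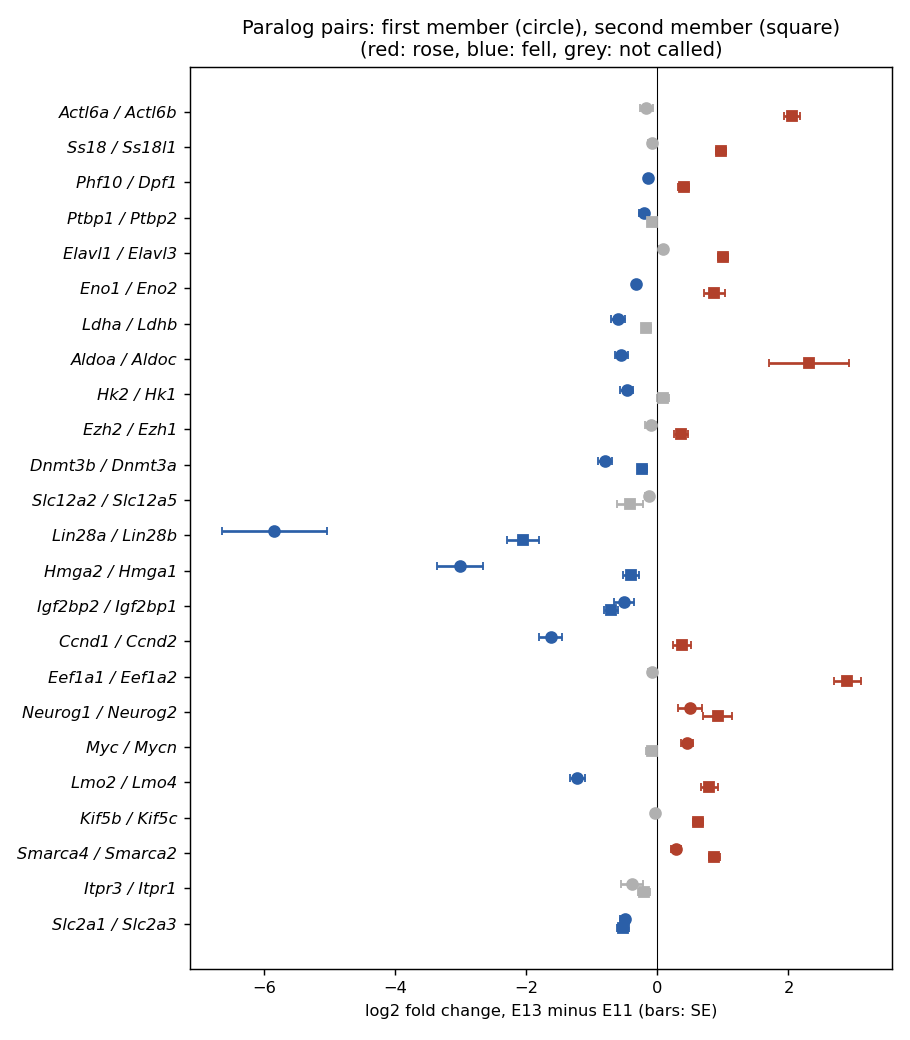
Log2 fold change from E11 to E13 with its SE for the 2 members of 24 paralog pairs (circle, first named; square, second named; red rose, blue fell, grey not called). Second members lie to the right of the first in pairs such as Actl6a and Actl6b (2.05 against -0.17) and Eef1a1 and Eef1a2 (2.90 against -0.08). In others, such as Igf2bp2 (-0.51) and Igf2bp1 (-0.71), both members fell.

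Rises also outnumbered falls among RNA-binding regulators of neuronal splicing. Of 39 tested 20 rose and 5 fell (22.6% and 17.5% over all tested genes), with a median of 0.22. The falls were 3 without E11 C and 3 without E13 B. Rbfox1 was at 2.57, 2.56 and 2.64 CPM at E11 and 14.2, 22.3 and 16.4 CPM at E13 (log2 fold change 2.76 ± 0.16 SE, adjusted p = 1.87e-07), Rbfox3, the NeuN antigen, at 16.2, 15.4 and 13.8 CPM at E11 and 49, 65.9 and 51.2 CPM at E13 (log2 fold change 1.87), and Srrm3, which promotes neuronal microexons, at 2.92, 2.27 and 4.11 CPM at E11 and 8.99, 13.6 and 8.7 CPM at E13 (log2 fold change 1.76). The E13 values exceeded all E11 values in the 3 genes. Ptbp2, the splicing repressor of young neurons, did not pass (426, 435 and 424 CPM at E11 and 410.5, 393 and 411 CPM at E13, adjusted p = 0.303).

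In the lists that build the form of the neuron, rises outnumbered falls. Of 28 neuronal migration genes 18 rose and 0 fell (22.6% and 17.5% over all tested genes), with a median of 0.46. With upper-quartile factors, with library size alone, or without E11 C, 1 migration gene fell. Plxna4, a semaphorin coreceptor, was at 64.8, 43.2 and 44.5 CPM at E11 and 172, 211 and 175 CPM at E13 (log2 fold change 1.87 ± 0.15 SE, adjusted p = 1.99e-06). Of 31 genes of microtubule-associated proteins, filaments and growth cones 24 rose and 2 fell, with a median of 0.57; 1 fell without any 1 of E11 A, E11 C and E13 A. Mapt, the axonal protein tau, was at 26.8, 20.6 and 24 CPM at E11 and 133, 186 and 152 CPM at E13 (log2 fold change 2.72 ± 0.12 SE, adjusted p = 3.95e-08). Prph, a neurofilament protein, stood at 0.886, 0.177 and 0.0956 CPM at E11 and 3.6, 5.31 and 4.23 CPM at E13 (log2 fold change 3.47; 4.95 without E11 A). Tubulin genes split: 7 of 15 rose and 4 fell. Tubb2a (1.11) and Tuba4a (1.13) were among the rises, and Tubb6 (-0.59), Tuba1b (-0.40) and Tubb4b (-0.35) among the falls. Of 53 Rab GTPases, which direct membrane traffic, 27 rose and 3 fell, or 6 with upper-quartile factors and 5 when only library size was used.

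Axon guidance genes changed in both directions. Of 72 tested 38 rose and 10 fell (22.6% and 17.5% over all tested genes), with a median of 0.42. Unc5d, a netrin receptor of young cortical neurons, was at 4.17, 4.42 and 2.04 CPM at E11 and 30.5, 55.1 and 28.2 CPM at E13 (log2 fold change 3.41 ± 0.33 SE, adjusted p = 3.15e-05), and Ntng2, a membrane-anchored netrin, at 8.74, 6.93 and 8.57 CPM at E11 and 36.3, 48.5 and 36.2 CPM at E13 (log2 fold change 2.32). Unc5c, of the same receptor family, went the other way with 11.3, 17.1 and 17.4 CPM at E11 and 6.14, 4.97 and 6.36 CPM at E13 (log2 fold change -1.39). Efna5, an ephrin that sets boundaries for axons, was at 16.9, 16.6 and 19.9 CPM at E11 and 6.83, 6.54 and 8.36 CPM at E13 (log2 fold change -1.30). In none of these 4 genes did the ages overlap.

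Adhesion molecules of the neuronal surface rose widely. Of 51 tested 38 rose and 4 fell (22.6% and 17.5% over all tested genes), with a median of 0.97. Members of this and the other lists were chosen with earlier results of these data known. Lrrtm4 and Lrrtm2, postsynaptic organisers, were among the largest rises. Lrrtm4 was at 0.709, 1.24 and 0.892 CPM at E11 and 5.48, 8.11 and 5.37 CPM at E13 (log2 fold change 2.73), and Lrrtm2 at 0.502, 0.442 and 1.11 CPM at E11 and 4.15, 5.17 and 3.95 CPM at E13 (log2 fold change 2.70, and 3.29 without E11 C and E13 C). Neither overlapped between the ages. Cntnap2, a neurexin-like protein, fell from 199, 187 and 269.5 CPM to 121, 88.6 and 124 CPM (log2 fold change -0.98). Of 28 cadherins and delta-protocadherins 13 rose and 3 fell, or 7 with upper-quartile factors and 5 when only library size was used. Cdh13, a cadherin anchored by a lipid, was at 4.49, 3.6 and 3.03 CPM at E11 and 33.3, 46.3 and 36.6 CPM at E13 (log2 fold change 3.38 ± 0.17 SE, adjusted p = 1.21e-07).

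The clustered protocadherins, which give neurons distinct surface identities by random choice of promoters, rose throughout: all 57 tested were called, with a median log2 fold change of 1.21, and 55 to 57 in fits with 1 library left out. The smallest rise was that of Pcdhgc3 (0.43) and the largest that of Pcdhb9 (1.96), both chosen after their values were seen. Pcdhb9 was at 0.236, 0.472 and 0.287 CPM at E11 and 1.3, 1.52 and 1.08 CPM at E13, and Pcdhgc3 at 223, 212 and 212 CPM at E11 and 281, 304 and 285 CPM at E13. The genes of the alpha and gamma clusters share their last exons, so reads may be split between them, and the 57 counts are not independent. Genes of the beta cluster do not share exons.

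Among potassium channel genes rises outnumbered falls. Of the 80 tested genes with a symbol starting with Kcn 38 rose and 4 fell (7 with upper-quartile factors), with a median of 0.47. Over all tested genes 22.6% rose and 17.5% fell. In a chosen list of 52 channel genes 34 rose and 1 fell (2 with upper-quartile factors), with a median of 0.99. Kcnh3, a slow voltage-gated channel of the forebrain, was at 0.857, 0.147 and 0.0956 CPM at E11 and 8.44, 12.1 and 7.68 CPM at E13 (log2 fold change 4.65 ± 0.45 SE, adjusted p = 2.12e-05; 6.22 without E11 A), and Kcnk3, a leak channel, at 0.0591, 0.059 and 0.0319 CPM at E11 and 1.27, 1.66 and 1.6 CPM at E13 (log2 fold change 4.81). Kcnk1, another leak channel, fell (-1.16). The sodium channel genes split, with 4 of 11 rising and 3 falling: Scn2a, the main channel of embryonic axons, was at 2.81, 2.98 and 3.15 CPM at E11 and 8.86, 9.6 and 9.35 CPM at E13 (log2 fold change 1.64 ± 0.09 SE, adjusted p = 6.03e-08).

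Of 19 GABA and glycine receptor subunits 11 rose and 1 fell, with a median of 0.96; the fall was lost without any 1 of E11 B, E11 C, E13 A and E13 B, and 2 fell without E13 C. Glra2, the embryonic glycine receptor subunit, was at 4.05, 3.54 and 2.07 CPM at E11 and 17.9, 17.2 and 17.3 CPM at E13 (log2 fold change 2.43 ± 0.15 SE, adjusted p = 2.26e-07). Of 54 other transmitter and peptide receptors 22 rose and 7 fell (22.6% and 17.5% over all tested genes). Grm5, a metabotropic glutamate receptor, was at 0.148, 0.354 and 0.191 CPM at E11 and 3.44, 4.72 and 4.1 CPM at E13 (log2 fold change 4.12), and Chrna3, a nicotinic receptor subunit, at 13.2, 12.8 and 12.9 CPM at E11 and 5.45, 4.13 and 4.97 CPM at E13 (log2 fold change -1.41). Adra2b, an adrenergic receptor, fell from 14.3, 3.27 and 8.57 CPM to 0.212, 0.112 and 0.154 CPM (-5.73) and was lowest at E11 in E11 B, as the sum of red cell genes was, whose part in the result was not tested. Of 46 neurotrophins, neuropeptides and other secreted factors 20 rose and 5 fell, with 3 falls without E13 A and 2 without E13 B. Nxph3, a ligand of neurexins, was at 0.916, 0.649 and 0.478 CPM at E11 and 3.39, 8.11 and 4.07 CPM at E13 (log2 fold change 2.92).

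Matrix, imprinted, noncoding and cell death genes gave mixed counts, where 22.6% of all tested genes rose and 17.5% fell. Of 40 matrix genes 14 fell and 5 rose, with 9 falls without E13 B. Ncan, a brain proteoglycan, had a mean of 126 ± 4.23 CPM at E11 and 323 ± 71.5 CPM at E13 (SD, n = 3 each; log2 fold change 1.36), and Hapln1, which links such proteoglycans to hyaluronan, was at 14.4, 16.7 and 38.4 CPM at E11 and 4.79, 3.31 and 5.93 CPM at E13 (log2 fold change -2.31). Of 39 imprinted genes 10 rose and 11 fell. Beside Mest, Asb4 fell by 1.18 on the log2 scale, while Rasgrf1, an activator of Ras in neurons, was at 0.177, 0.0884 and 0.0956 CPM at E11 and 2.43, 5.67 and 2.07 CPM at E13 (log2 fold change 4.77 ± 0.57 SE, adjusted p = 5.65e-05; 4.18 without E13 B). Of 31 long noncoding RNAs of the brain 7 rose and 6 fell (3 without E11 C), near the shares of all tested genes. The largest rise was that of Mir124a-1hg, the host of a neuronal microRNA (1.91), and the largest fall that of Six3os1 (-3.13; adjusted p = 0.0722 without E11 C and E13 C). Of 29 apoptosis genes 6 rose and 4 fell, also near those shares. Pmaip1, which encodes the death-promoting protein Noxa, was at 6.47, 8.99 and 9.75 CPM at E11 and 0.899, 0.59 and 0.617 CPM at E13 (log2 fold change -3.57 ± 0.27 SE, adjusted p = 6.84e-07), with no overlap. The largest rise of the list was that of Hrk, which also promotes death (1.28, adjusted p = 0.00723), and Bcl2, which protects cells, rose by 0.68.

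A few genes were near absent at one age. With at most 3 counts over the 3 libraries of one age and at least 10 counts in every library of the other, 12 genes were on by E13 and 8 were off. Sst, the precursor of somatostatin, had 1, 0 and 2 counts in the E11 libraries and 162, 106 and 140 counts in the E13 libraries. Drd1, the dopamine D1 receptor, had 0, 0 and 1 counts against 44, 111 and 47 counts. Nxph2, a ligand of neurexins, had 0 counts in all E11 libraries and 27, 53 and 26 counts at E13, at least 33.1-fold higher against a floor of 3 counts over the 3 E11 libraries. Markers of interneurons and the ventral telencephalon summed to 22.8, 16.2 and 64.8 CPM at E11 and 26.2, 33 and 74.3 CPM at E13, and of 13 tested 1 rose and 1 fell, with 5 rises without E11 C and 0 falls without any 1 library but E11 B. Their part in these values was not tested. Lin28a led the genes that were off, followed by Aqp3, a water and glycerol channel, with 69, 29 and 82 counts at E11 and 2, 1 and 0 counts at E13, and Icam4, a red cell adhesion protein, with 63, 14 and 67 counts against 1, 1 and 1.

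The share of genes that rose was higher among long genes. Gene span, from the first to the last base of the gene in GENCODE M21, was available for 14781 tested protein-coding genes, of which 24.7% rose and 19.9% fell. Of the 3442 genes that span up to 10 kb, 21.2% rose and 18.9% fell. The share that rose was 33% at 100 to 200 kb, 41.8% at 200 to 500 kb and 55.5% of the 220 genes over 500 kb, of which 11.4% fell. The median log2 fold change of that last group was 0.52, against -0.01 for genes up to 10 kb. With a 2-fold limit 29.1% of genes over 500 kb rose, against 5.23% up to 10 kb. The median level of the 2 groups was 10.1 and 16.2 CPM. Long genes are often genes of neurons, and the neuronal lists above were not removed. Among 1441 long noncoding RNA genes 255 rose (17.7%) and 80 fell (5.55%). Among 521 processed pseudogenes 12 rose (2.3%) and 24 fell (4.61%). These shares were all below those of protein-coding genes. With a 2-fold limit 9.23% of long noncoding RNA genes rose and 3.19% fell, against 6.2% and 3.67% of protein-coding genes. Among processed pseudogenes 0.192% rose and 1.34% fell by that limit. Most long noncoding RNA genes and processed pseudogenes were near the detection limit, with medians of 0.687 and 0.535 CPM.

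**Figure D5:**
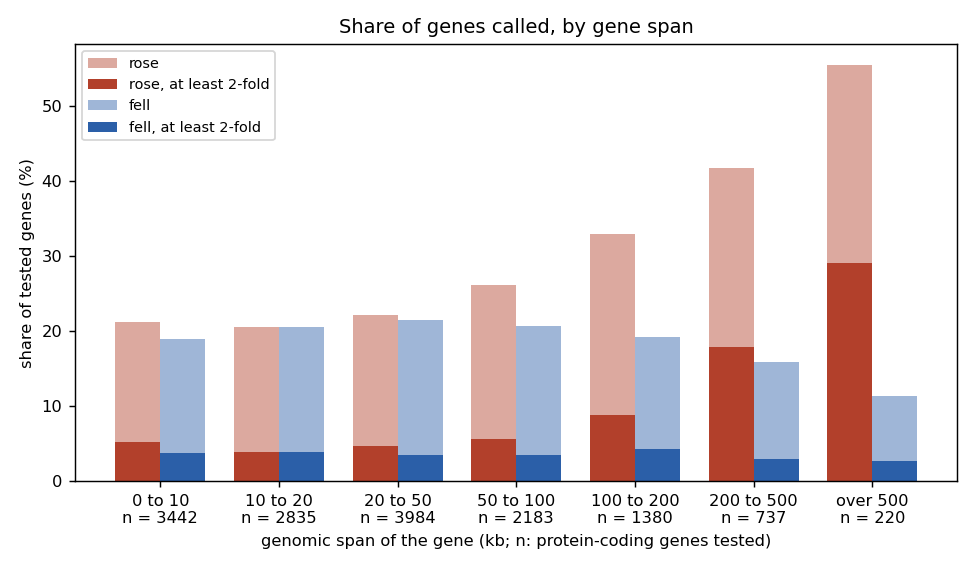
Share of tested protein-coding genes that rose (red) or fell (blue) from E11 to E13, by genomic span in kb, with darker parts for changes of at least 2-fold and the number of genes under each bin. The rising share goes from 21.2% up to 10 kb to 55.5% over 500 kb.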

How the data were processed

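Poly(A)+ RNA of 12 mouse cortices was sequenced, per the labels' protocols, with the TruSeq Stranded mRNA kit as 75 bp single reads. The deposited values are raw counts for 50600 gene identifiers per library, 50376 with a symbol. DESeq2 1.8.1, HTSeq 0.5.3, SAMtools, STAR 2.5.2b and bcl2fastq 2.18 appear in the submitters' processing notes. What each did, and the build, annotation and strand option of the counting, were not given in the sources used here. Reads of overlapping and antisense genes may therefore be confused. Identifiers without a symbol held 0.0674 to 0.0783% of the counts of the E11 and E13 libraries.

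Groups are the ages of the labels. The counts of all 12 libraries were fitted with edgeR 4.0.16 in R 4.3.3 (filterByExpr by age, minimum count 10; TMM factors; robust quasi-likelihood fit), and E13 was tested against E11, two-sided, with Benjamini-Hochberg adjustment over 17847 genes at 0.05; 32753 identifiers were removed by the filter. All ages share 1 estimate of the spread. The common coefficient of variation was 0.106 over all 4 ages, below that of either age compared (0.125 at E11, 0.115 at E13). With only the 6 libraries of E11 and E13 in the fit, 6393 genes were called in place of 7155. Errors are standard errors of the log2 fold change. They were derived from the test, as the absolute log2 fold change divided by the square root of the F statistic. Libraries of an age differed by more than counting error, and none was a copy. The 3 embryos of an age are separate animals of separate litters.

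Lists are described by counts of called members and medians over tested members, with no test of the list. The members and lists were chosen with earlier results of these data known. Named genes follow a rule: the 12 largest rises and 12 largest falls at 10 CPM or more with no overlap, the 8 largest gains and 8 largest losses in CPM, up to 3 rises and 3 falls per list with at least 1 CPM, 24 paralog pairs, and 5 genes in each direction that were on or off; other members are named as not passing or as chosen after their values were seen. Xist, Y-linked genes and unnamed transcripts were left out, and some named genes are not reported here. Spans and kinds of gene are from GENCODE M21, and promoters from RefSeq.

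The fit was tested on simulated counts with known changes in 200 of 17567 genes, a far smaller share than was called in the data. It recovered 73.5% of the 2-fold and 51.5% of the 1.5-fold changes. Of the genes it called, 3.91% were unchanged. Alternatives were other scaling factors (RLE, upper-quartile, library size alone), other filters, only the 6 libraries, replicate letter as a block, DESeq2 1.42.0, limma-voom (limma 3.58.1), a test against a 1.2-fold change, red cell genes removed, and libraries left out.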

Additional observations from a re-analysis of the deposited data

How the results depend on the processing

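The 7155 changed genes (4038 rising, 3117 falling) became 3287 (2176 rising, 1111 falling) when the test was against a 1.2-fold change in place of none, and stayed within 1.5 times under all other alternatives run, from 5419 without E11 C and E13 C to 7383 with upper-quartile factors. DESeq2 called 7175 genes and limma-voom 7195. With 1 library left out the count was 5562 to 7024, the lowest without E13 B. The count of at least 2-fold changes stayed within 1.5 times of 1742 in every alternative run. Of 319 named genes, 305 passed the threshold, 264 in every fit with 1 library left out, and no gene past the threshold turned direction in any alternative. Replicate letters A, B and C were not treated as pairs in the main fit. The correlation of deviations from the age means was 0.1, -0.043 and 0.331 for same-letter libraries A, B and C. The value for C was the highest of any E11 and E13 libraries, while E11 B correlated best with E13 A (0.316). What the C libraries share was not tested. With the replicate block, 6756 genes were called. With 3 libraries per age, a gene that did not pass is not shown to be stable.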
